A study of Mus musculus with 12 samples.

Results

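The genes described here make retinoic acid, carry it, sense it, destroy it or are induced by it: Aldh1a1, Aldh1a2, Aldh1a3, Rarb, Rarres2, Crabp1, Crabp2, Cyp26b1 and Stra6. They were chosen by gene symbol. These genes and all marker and pathway lists below were chosen with earlier results of these data known. All 9 were found among the 20606 genes of the deposited table, and 8 of them passed the filter that left 13300 genes for testing (at least 1 FPKM in at least 3 libraries); Crabp1 did not. Bulk polyA RNA of fibroblasts from mouse lung was sequenced in 12 libraries, 3 for each of 4 groups. N-MF and N-MyoF are the matrix fibroblasts and the MyoF subgroup of normal mice, and M-MF and M-MyoF are the same subgroups of mice with lung metastasis, in a study of breast cancer spread to the lung. The sources used here do not give the strain, age, tumour cells, time after injection or method of sorting. Nothing in the labels ties the 3 libraries of a group to different mice, and the p-values therefore reflect only the spread among libraries, which may be technical. Values are FPKM, fragments scaled by transcript length and by the number of mapped fragments, so levels can be compared between genes per length, but the read depth behind them is unknown.

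Retinol circulates bound to a plasma carrier and enters some cells through the receptor STRA6. It is oxidised to retinaldehyde by retinol and alcohol dehydrogenases, and retinaldehyde is oxidised to retinoic acid by the ALDH1A enzymes in a step that cannot be undone. The CRABP proteins bind retinoic acid in the cytoplasm, the receptors RAR and RXR bind it in the nucleus as heterodimers, and CYP26 enzymes break it down. In lung, retinoic acid acts in the growth of the lung bud and in the formation of alveoli, and interstitial fibroblasts store retinoids.

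The receptor gene Rarb is a textbook target of its own ligand, through a direct repeat in its promoter. The motif AGGTCA, which RAR and RXR bind in pairs, was searched together with its variant AGTTCA, with the form GGGTCA that starts with G, and with GGTTCA that combines both changes, as direct repeats spaced by 1, 2 or 5 bases. Both strands of the 300-base windows from 250 bases before to 50 bases after RefSeq transcript starts (GRCm38.p6) were read. Windows were found for 6 of the 9 genes, and Rarb alone of these 6 held such a repeat. Over all 32851 windows 0.588% held a repeat, and 0.0974% held one with a spacing of 5. Of 52 other retinoid genes with a window 2 held one, and that of Cyp26a1, which encodes the relative of CYP26B1, also had a spacing of 5. Both are shown because they are the repeats with a spacing of 5 found in the windows of the retinoid genes. Capitals mark the paired motifs, and the sequence is read 5′ to 3′ on the strand of the repeat, with 6 bases on each side:
Rarb: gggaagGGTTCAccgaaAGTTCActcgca
Cyp26a1: caaattAGTTCAcccaaAGTTCAtcttta
The Rarb stretch is chr14:16575507-16575535 on the minus strand, which is the strand of the gene, and its repeat lies 53 to 37 bases before the start. In the GENCODE M21 annotation of GRCm38, 2 of 7 Rarb transcripts have an exon over this repeat, since they start further upstream. The Cyp26a1 stretch is chr19:37697770-37697798, read on the minus strand while the gene lies on the plus strand, and its repeat lies 32 to 16 bases before the start, where none of the 2 annotated transcripts has an exon. A match of letters is a description and not a measured binding site, and no match says only that these letters are not in the window searched.

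The libraries were close to each other within a group, with correlations of log2 values between 0.996 and 0.998. Markers fixed for fibroblasts (Col1a1, Col1a2, Pdgfra, Pdgfrb, Dcn, Lum) summed to 17484 to 17667 FPKM in N-MF and 11010 to 11047 in M-MF, but to 2634 to 2671 in N-MyoF and 1417 to 1430 in M-MyoF. The matrix fibroblast markers (Col13a1, Col14a1, Tcf21, Dpt, Inmt, Pi16) summed to 6638 to 6844, 2115 to 2147, 1060 to 1083 and 437 to 441 FPKM in the same order. In each of these lists 5 markers were higher and 1 lower in N-MF than in N-MyoF. The lower ones were Pdgfrb (87.7 against 120 FPKM) and Col13a1 (3.03 against 5.01). In M-MF and M-MyoF Pdgfrb stood at 43.7 and 92.2 FPKM, and Col13a1 at 3.08 and 2.63. The 6 myofibroblast and smooth muscle markers (Acta2, Tagln, Myh11, Aspn, Hhip, Lgr6) were all higher in MyoF. They summed to 447 to 464 in N-MF, 294 to 298 in M-MF, 4460 to 4569 in N-MyoF and 2934 to 2989 in M-MyoF. Of the 6, 4 rose and 2 fell in M-MF, and 2 rose and 3 fell in M-MyoF. Acta2 rose from 24.0 to 79.7 FPKM in MF and from 628 to 949 in MyoF. Aspn fell from 351 to 140 in MF and from 1210 to 683 in MyoF, and Hhip from 67.8 to 43.2 and from 2231 to 787. Markers of airway and alveolar epithelium stood at 2512 to 2562 and 2900 to 2931 FPKM in N-MF and M-MF and at 19775 to 20276 and 15741 to 16294 in N-MyoF and M-MyoF. Transcripts of epithelial cells were thus present in libraries labelled fibroblasts, most of all in the MyoF groups. Neutrophil markers summed to means of 33.7, 238, 130 and 12885 FPKM in N-MF, M-MF, N-MyoF and M-MyoF. Endothelial markers summed to 125 to 126, 883 to 901, 398 to 410 and 526 to 533 FPKM in that order. Most of the M-MF sum was Car4, which went from 17.8 FPKM in N-MF to 702, while Cldn5 went from 73.8 to 149, Pecam1 from 24.3 to 31.8, Cdh5 from 6.43 to 9.29 and Kdr from 3.45 to 2.57. In bulk samples, fewer cells of a type and less RNA per cell cannot be told apart.

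**Figure D1:**
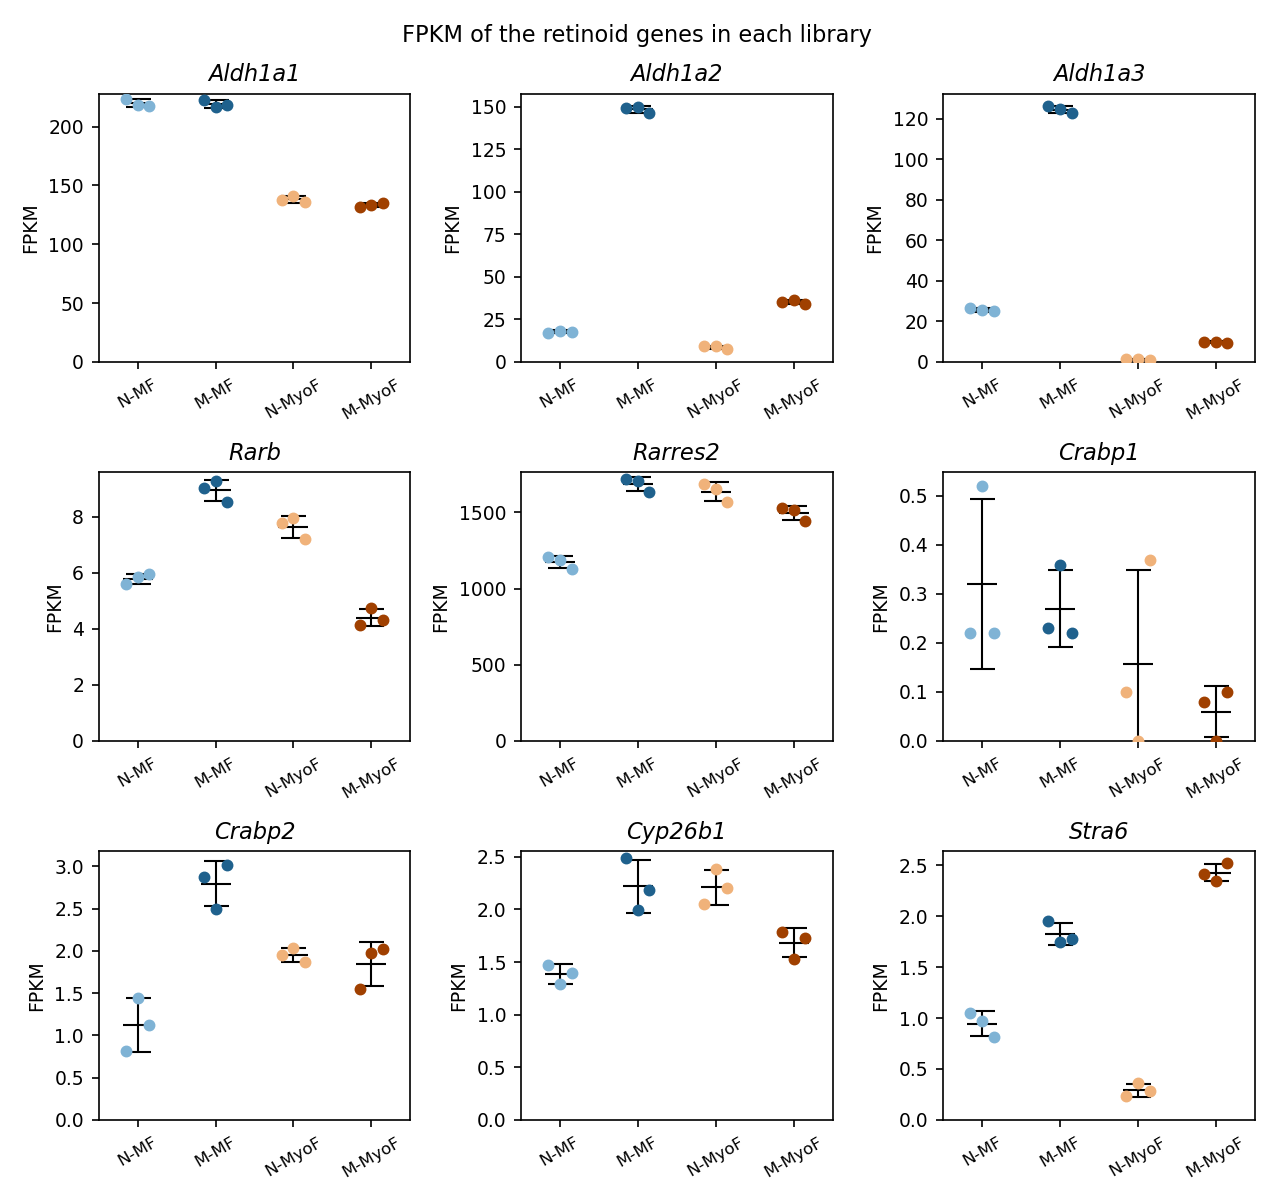
FPKM of each of the 9 genes (linear axes from 0) in the 12 libraries, by group; points are libraries, and the horizontal line and bars are the mean ± SD of 3. Aldh1a2 and Aldh1a3 stand far higher in M-MF (148 and 124 FPKM on average) than elsewhere, Aldh1a1 hardly differs between normal and metastatic lung, and Crabp1 stays at or below 0.52.

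The comparison of metastatic with normal lung asked how fibroblasts of a lung with tumour growth differ from those without. Between M-MF and N-MF, 7 of the 8 tested retinoid genes rose and none fell, against a background of 78.1% of all genes called in either direction and 46.3% called higher. The median log2 fold change of the 8 was 0.55, beside 0.08 for all genes tested. Aldh1a2 and Aldh1a3 rose at least 2-fold, which 11.9% of all genes tested did in either direction. In MyoF, 3 of the 8 rose (Aldh1a2, Aldh1a3 and Stra6, each at least 2-fold), 4 fell and 1 was not called, with a median of -0.05 beside 0.11 for all genes. The background there was 80.7% called, 49.1% higher and 31.6% lower, and 14.6% at least 2-fold. Stra6, counted in both subgroups, met the filter only through metastatic lung, where it was higher, so its rises are a description. Most genes passed the test in these tightly spaced libraries, so a share of calls near these values is no result about the retinoid genes. The share of calls that were higher, over all genes, was 59.3% for M-MF against N-MF as deposited and 49.9%, 47.8% and 40.4% after, in turn, scaling to equal sums, scaling by median ratios and quantile normalization. For MyoF it was 60.8% as deposited and 45.8%, 48.2% and 41.1% after these scalings. They moved the median of all genes from 0.08 to between -0.10 and -0.01 in MF and from 0.11 to between -0.11 and -0.03 in MyoF. The groups compared did not overlap for 79.8% of all genes in MF and 82.2% in MyoF, and for 82.4% and 85.6% between the subgroups of normal and of metastatic lung, which is the background for each remark on overlap. Log2 fold changes are differences of log2(FPKM + 1) with their SE from limma, and FPKM means are given with their SD (n = 3 libraries per group). That scale understates the changes of genes near 0, so ratios of mean FPKM are given too.

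The 3 synthetic enzymes behaved differently from one another. Aldh1a2 encodes RALDH2, the main retinoic acid maker of the embryo and of mesenchyme and mesothelium (chromosome 9, 71215789 to 71296243, plus strand; coordinates of genes are from RefSeq on GRCm38.p6). Its FPKM in the N-MF libraries was 16.8, 18.4 and 17.9, and in M-MF 149, 150 and 146. In N-MyoF it was 9.07, 9.42 and 7.68, and in M-MyoF 35.0, 36.5 and 34.3. The 4 groups did not overlap, and M-MF stood above all others. The mean rose 8.41-fold in MF (log2 fold change 3.00 ± 0.0573, limma adjusted p = 7.35e-14) and 4.04-fold in MyoF (1.90 ± 0.0573, adjusted p = 4.79e-12). The rise was larger in MF, with a difference between the log2 effects of 1.10 ± 0.081 (limma adjusted p = 1.39e-07); for that difference 64.4% of all genes were called, 26.4% with the effect higher in MF and 38% lower, and 7.1% at least 2-fold. Of the 8 retinoid genes 6 were called, 5 higher and 1 lower, and Aldh1a2 and Rarb passed 2-fold.

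Aldh1a3 encodes RALDH3, an enzyme of epithelia and of the eye and nose in development (chromosome 7, 66390892 to 66427477, minus strand). In N-MF it read 26.8, 25.5 and 24.9 FPKM, and in M-MF 126, 125 and 123. In MyoF it was far lower, at 1.27, 1.36 and 1.19 FPKM in N-MyoF and 9.97, 10.1 and 9.46 in M-MyoF. Again no 2 groups overlapped, and N-MF lay above M-MyoF. Aldh1a3 rose 4.83-fold in MF (2.23 ± 0.0372, limma adjusted p = 2.1e-14) and 7.72-fold in MyoF (2.25 ± 0.0372, adjusted p = 1.88e-14). Whether these 2 rises differ depended on the pseudocount and on the scaling. The difference was -0.02 ± 0.0526 with a pseudocount of 1 (limma adjusted p = 0.728), -0.59 with 0.1 (adjusted p = 8.11e-06) and 0.83 with 5 (adjusted p = 1.07e-09). After quantile normalization it was -0.19 (adjusted p = 0.00595).

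Aldh1a1, which encodes the RALDH1 enzyme of many adult tissues (chromosome 19, 20492583 to 20643463, plus strand), was the most abundant of the 3 in every group. It stood at 223, 218 and 217 FPKM in N-MF and at 223, 216 and 219 in M-MF, and these ranges overlapped. As deposited it was not called (-0.00 ± 0.0206, limma adjusted p = 0.924), while it was called lower under each of the 3 scalings (-0.11, -0.14 and -0.31). In N-MyoF it read 138, 141 and 135 FPKM and in M-MyoF 131, 133 and 135. The M-MyoF values all lay below the N-MyoF values by a small margin (-0.05 ± 0.0206, limma adjusted p = 0.0377). That call was lost without N-MyoF replicate 1 or 2 or M-MyoF replicate 1 or 2 (adjusted p = 0.0626, 0.157, 0.125 and 0.0696 in limma). After scaling to equal sums the fall of Aldh1a1 in MyoF was larger (-0.24), so its size depends on the scaling. Its neighbour on chromosome 19, Aldh1a7, encodes a close copy, read at 0.76 FPKM in N-MF, 1.86 in M-MF, 3.81 in N-MyoF and 7.03 in M-MyoF. Of the 50-base stretches of the Aldh1a7 transcript, 7.49% occur exactly in an Aldh1a1 transcript and 0.0508% of the 100-base stretches do, while Aldh1a2 and Aldh1a3 share none with Aldh1a1 or with each other. How reads of shared stretches were assigned is not stated, so the low values of Aldh1a7 are uncertain.

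Added up, the transcripts of the 3 enzymes rose from 263 ± 3.6 to 492 ± 5.57 FPKM in MF and from 148 ± 3.78 to 178 ± 1.85 FPKM in MyoF (mean ± SD, n = 3). Their mix shifted with it. Aldh1a1 made up 83.5% ± 0.216 of the sum in N-MF and 44.6% ± 0.422 in M-MF. The share of Aldh1a2 went from 6.71% ± 0.387 to 30.2% ± 0.329 and that of Aldh1a3 from 9.79% ± 0.24 to 25.3% ± 0.105. In MyoF, Aldh1a1 went from 93.3% ± 0.521 to 74.7% ± 0.721, Aldh1a2 from 5.88% ± 0.489 to 19.8% ± 0.553 and Aldh1a3 from 0.859% ± 0.0355 to 5.51% ± 0.193. Within each subgroup the libraries of normal and metastatic lung did not overlap in any of these shares. These sums add levels per length, and no test was made on them.

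**Figure D2:**
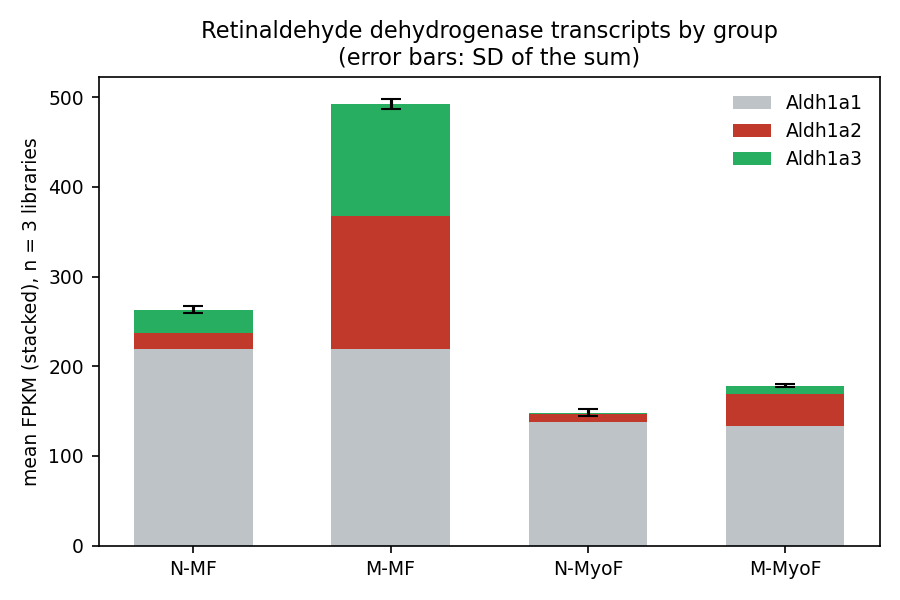
Mean FPKM of Aldh1a1, Aldh1a2 and Aldh1a3, stacked, in the 4 groups (n = 3 libraries each), with the SD of their sum as error bars. The grey Aldh1a1 part has the same height in N-MF and M-MF, and the sum goes from 263 to 492 FPKM through the other 2 genes.

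Other cell types that are known to make ALDH1A enzymes were followed with fixed markers. Of 8 mesothelial markers, 7 were tested and all 7 rose in both subgroups. Of these, Bnc1 passed the filter only through metastatic lung, where it was higher, so its rise is no support for this count. The sum of the 8 markers went from 6.76 to 7.05 FPKM in N-MF to 243 to 248 in M-MF. In MyoF it went from 82.3 to 83.0 in N-MyoF to 207 to 215 in M-MyoF, with no marker at 0 in any group. Aldh1a2 was higher in N-MF (17.7 FPKM) than in N-MyoF (8.72), while the mesothelial sum was lower in N-MF. In metastatic lung both Aldh1a2 (148 against 35.3 FPKM) and the mesothelial sum were higher in M-MF than in M-MyoF. Of the 7 tested markers, 5 were higher and 2 lower in M-MF than in M-MyoF. The part of mesothelial RNA in the Aldh1a2 values was not tested. Of 6 carcinoma epithelial markers, 5 rose and 1 fell in M-MF, and 3 rose and 2 fell in M-MyoF. They summed to 25.5 to 27.9 FPKM in N-MF, 318 to 325 in M-MF, 114 to 116 in N-MyoF and 750 to 773 in M-MyoF. Most of the M-MF and M-MyoF sums was Krt8 and Krt18. Krt8 went from 5.31 to 166 FPKM in MF and from 23.0 to 387 in MyoF, and Krt18 from 4.79 to 122 and from 24.5 to 293. Krt14, at 0 in N-MF, rose in both subgroups (log2 fold changes 3.26 and 2.95). Krt7 rose in MF (0.661) and fell in MyoF (-0.0911). Epcam rose in MF (0.293) and was not called in MyoF (0.0396), and Cdh1 fell in both (-0.169 and -0.302). Aldh1a3 stood 12.7-fold higher in M-MF than in M-MyoF, where the carcinoma sum was higher; the part of tumour or other epithelial RNA in it was not tested. Airway and alveolar epithelial markers rose in 4 of 8 and fell in 3 of 8 cases in M-MF, and rose in 1 and fell in 7 in M-MyoF. Dendritic cell and macrophage markers summed to 6.8 to 8.26 FPKM in N-MF and 5.16 to 5.68 in M-MF, and to 28.4 to 30.2 in N-MyoF and 16.4 to 18.6 in M-MyoF. Of the 5 of these 7 that were tested, none rose and 4 fell in each subgroup. But Itgax, Siglecf and Adgre1 would not have passed the filter without N-MyoF, where they were highest. Flt3, which was not tested, went from 0.207 to 0.40 FPKM in MyoF. The part of these cells in the Aldh1a2 values was not tested. Marco was at 0 in N-MF and M-MF and Siglecf in M-MF.

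Stra6, the membrane receptor that takes up retinol from its plasma carrier (chromosome 9, 58063793 to 58154004, plus strand), rose in both subgroups from a low level. It read 1.05, 0.97 and 0.81 FPKM in N-MF and 1.95, 1.75 and 1.78 in M-MF. In N-MyoF it was 0.23, 0.36 and 0.28, and in M-MyoF 2.41, 2.35 and 2.52. All 4 groups stood apart, with the lowest and the highest values both in MyoF. The normal lung libraries alone would not have passed Stra6 through the filter, which it met through the metastatic groups, where it was higher. Its rises are therefore a description. The mean rose 1.94-fold in MF (0.54 ± 0.0587, limma adjusted p = 2.28e-06) and 8.37-fold in MyoF (1.41 ± 0.0587, adjusted p = 1.26e-10), and the effect in MF was smaller by a log2 difference of -0.87 ± 0.083 (adjusted p = 1.57e-06).

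Rarb, Rarres2, Crabp2 and Cyp26b1 rose in MF and did not rise in MyoF, while Crabp1 was too low to be tested. Rarb, the nuclear receptor RAR-beta (chromosome 14, 16430839 to 17082331, minus strand) whose repeat is shown above, read 5.59, 5.84 and 5.94 FPKM in N-MF and 9.02, 9.26 and 8.52 in M-MF. In N-MyoF it read 7.76, 7.94 and 7.20, and in M-MyoF 4.15, 4.75 and 4.30. The tumour groups were thus the extremes, M-MF highest and M-MyoF lowest, with no overlap. Rarb rose 1.54-fold in MF (0.55 ± 0.0502, limma adjusted p = 4.29e-07) and fell in MyoF to 0.576 of the normal mean (-0.68 ± 0.0502, adjusted p = 4.55e-08). The effects differed by 1.23 ± 0.071 (adjusted p = 1.33e-08). These directions were the same under all 3 scalings.

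Rarres2 encodes chemerin, a secreted attractant of immune cells first found as a retinoid-induced gene (chromosome 6, 48569696 to 48572845, minus strand). It had the highest level per length of the 9 genes, with 1206, 1186 and 1130 FPKM in N-MF and 1718, 1708 and 1635 in M-MF. In N-MyoF it read 1688, 1656 and 1566 FPKM, and in M-MyoF 1532, 1514 and 1441. N-MF was the group that stood low, and the M-MF and N-MyoF ranges overlapped. Rarres2 rose 1.44-fold in MF (0.52 ± 0.0336, limma adjusted p = 1.22e-08) and fell slightly in MyoF (-0.13 ± 0.0336, adjusted p = 0.00323), with a difference of 0.65 ± 0.0475 (adjusted p = 1.24e-07).

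Crabp2, which carries retinoic acid to the nucleus (chromosome 3, 87948693 to 87953372, plus strand), read 0.81, 1.44 and 1.12 FPKM in N-MF and 2.87, 2.50 and 3.02 in M-MF. In N-MyoF it was 1.95, 2.04 and 1.87 and in M-MyoF 1.55, 1.98 and 2.02, which overlap. It rose 2.49-fold in MF (0.85 ± 0.0995, limma adjusted p = 4.99e-06) and was not called in MyoF (-0.06 ± 0.0995, adjusted p = 0.62), and the effects differed by 0.90 ± 0.141 (adjusted p = 0.000117). Its relative Crabp1 (chromosome 9, 54764748 to 54773110, plus strand), often described as holding retinoic acid in the cytoplasm, was scarcely detected. It read 0.22, 0.52 and 0.22 FPKM in N-MF, 0.23, 0.36 and 0.22 in M-MF, 0.10, 0 and 0.37 in N-MyoF and 0.08, 0 and 0.10 in M-MyoF. With no filter on low values it was called in none of the 5 comparisons made (limma adjusted p of 0.066 to 0.776).

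Cyp26b1 encodes the retinoic acid hydroxylase that clears the ligand in many mesenchymal tissues (chromosome 6, 84571414 to 84593908, minus strand). It read 1.47, 1.29 and 1.40 FPKM in N-MF and 2.49, 1.99 and 2.18 in M-MF. In N-MyoF it was 2.05, 2.38 and 2.20, and in M-MyoF 1.79, 1.53 and 1.73. M-MF and N-MyoF overlapped at the high end, and the other 2 groups lay below them. Cyp26b1 rose 1.6-fold in MF (0.43 ± 0.0652, limma adjusted p = 5.24e-05) and fell in MyoF to 0.762 of the normal mean (-0.26 ± 0.0652, adjusted p = 0.00272), with a difference of 0.69 ± 0.0922 (adjusted p = 3.23e-05). Rarb, Rarres2 and Cyp26b1 thus fell in M-MyoF, where the neutrophil markers summed to 12690 to 13051 FPKM against 126 to 138 in N-MyoF, and the part of that RNA in their values was not tested. Rarb, Rarres2, Crabp2 and Cyp26b1 all had their highest mean in M-MF and the next in N-MyoF.

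**Figure D3:**
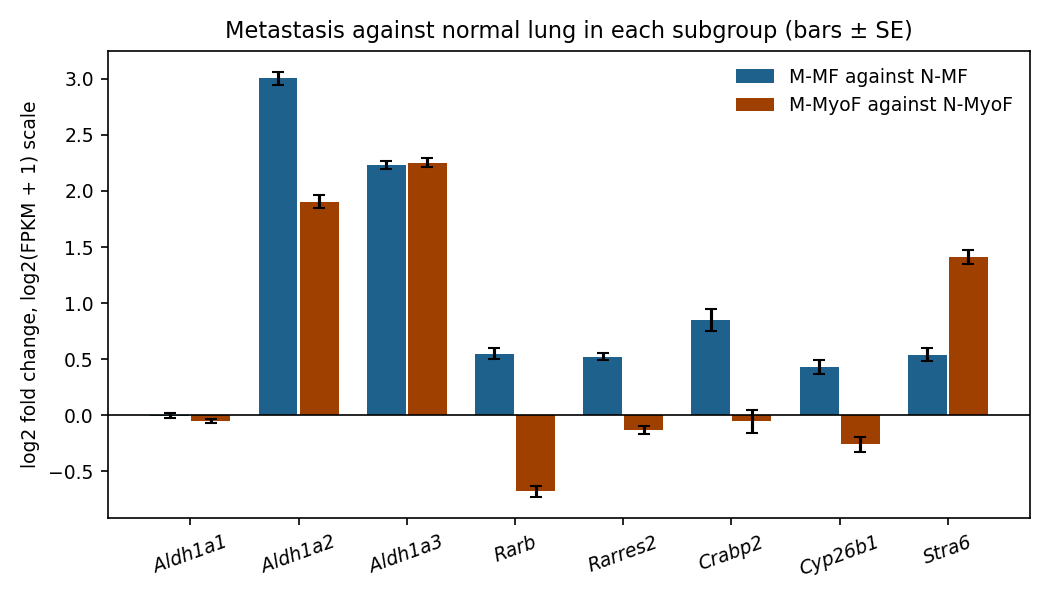
Log2 fold change (log2(FPKM + 1) scale) of metastatic against normal lung in MF and in MyoF for the 8 tested genes; bars are estimates and error bars the SE from limma. Aldh1a2, Aldh1a3 and Stra6 are above 0 in both subgroups, while Rarb, Rarres2 and Cyp26b1 are above 0 in MF (0.55, 0.52 and 0.43) and below 0 in MyoF (-0.68, -0.13 and -0.26).

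Between the subgroups of normal lung, all 8 tested genes were called, 4 higher and 4 lower in N-MF than in N-MyoF, against a background of 82% of all genes. The background was 24.5% higher and 57.6% lower, with a median of all genes at -0.21, which median-ratio scaling and quantile normalization moved to 0.03. The share of calls that were higher was 29.8% as deposited, 31.7% after equal sums and 53.8% and 52.1% after those other 2 scalings. The synthesis and uptake genes were higher in N-MF: Aldh1a3 20.2-fold (3.56 ± 0.0372), Stra6 3.25-fold (0.59 ± 0.0587), Aldh1a2 2.02-fold (0.94 ± 0.0573) and Aldh1a1 1.59-fold (0.67 ± 0.0206). At least 2-fold on the log2(FPKM + 1) scale was Aldh1a3 alone, where 16.8% of all genes tested were. The other 4 were lower in N-MF as deposited: Crabp2 (-0.49 ± 0.0995), Rarres2 (-0.48 ± 0.0336), Cyp26b1 (-0.43 ± 0.0652) and Rarb (-0.35 ± 0.0502). After quantile normalization Rarb, Crabp2 and Cyp26b1 were no longer called (-0.07, -0.11 and -0.06), and after median-ratio scaling Rarb was not (-0.09).

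In metastatic lung the order turned for these 4. Against M-MyoF, M-MF was higher in 7 of 8 genes and lower in Stra6, where 85.1% of all genes were called, 19.1% higher and 66% lower. The median of the 8 was 0.56 beside -0.29 for all genes, which the 3 scalings moved to between -0.20 and -0.01. The share of calls that were higher went from 22.4% as deposited to 29%, 48.8% and 47.3%. Aldh1a3 was 12.7-fold higher in M-MF (3.53 ± 0.0372), Aldh1a2 4.21-fold (2.04 ± 0.0573), Rarb 2.03-fold (0.88 ± 0.0502) and Aldh1a1 1.65-fold (0.71 ± 0.0206). Of these, Aldh1a3 and Aldh1a2 passed 2-fold on the log2(FPKM + 1) scale, and 13.6% of all genes did. Smaller differences were found for Crabp2 (0.42 ± 0.0995), Cyp26b1 (0.26 ± 0.0652) and Rarres2 (0.17 ± 0.0336). Stra6 was lower in M-MF (-0.28 ± 0.0587, limma adjusted p = 0.000699), a call that was lost after median-ratio scaling (-0.06) and turned in sign after quantile normalization (0.08). The subgroup and metastasis comparisons share libraries, so their values are not independent of each other.

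The wider pathway was followed in 5 further lists. Of 28 genes of retinoid supply and oxidation 20 were tested, and in M-MF 9 rose and 9 fell (median 0.04), while in M-MyoF 9 rose and 6 fell (median 0.06). After the 3 scalings 6 rose and 9 to 12 fell in M-MF, and 8 rose and 9 to 11 fell in M-MyoF. Of the dehydrogenases that make retinaldehyde, Rdh10, the main one of development, rose in MF from 4.58 ± 0.144 to 11.3 ± 0.373 FPKM (1.14 ± 0.0354) and was not called in MyoF as deposited (0.05 ± 0.0354; called lower after equal sums and quantile normalization, -0.11 and -0.13). Dhrs9, another retinol dehydrogenase, rose in both (1.43 ± 0.0566 and 1.92 ± 0.0566). It passed the filter only through M-MF and M-MyoF, where it was higher, so these rises are a description. The alcohol dehydrogenase Adh1 fell from 711 ± 24 to 385 ± 8.62 FPKM in MF (-0.88 ± 0.0363) and stood at 68.4 and 68.3 FPKM in MyoF, where it was called lower under the 3 scalings only (-0.31 to -0.16). Adh7 fell in MF (-1.55 ± 0.0541) and rose in MyoF (0.65 ± 0.0541). Among the enzymes of this step, some genes thus rose and others fell. Dhrs3, which turns retinaldehyde back into retinol and is itself induced by retinoic acid, rose slightly in MF (0.15 ± 0.037) and fell in MyoF (-0.40 ± 0.037). The rise of Dhrs3 in MF was lost after equal sums (0.04) and median-ratio scaling (0.01) and became a fall after quantile normalization (-0.17), while its fall in MyoF was called under all 3.

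Among carriers and stores, Rbp4, the plasma carrier of retinol, fell from 388 ± 3.74 to 98.8 ± 3.66 FPKM in MF (-1.96 ± 0.0263) and from 74.1 ± 1.04 to 35.2 ± 0.724 in MyoF (-1.05 ± 0.0263). Lrat, which makes retinyl esters for storage, fell in both (-0.22 ± 0.0581 and -0.85 ± 0.0581).

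**Figure D4:**
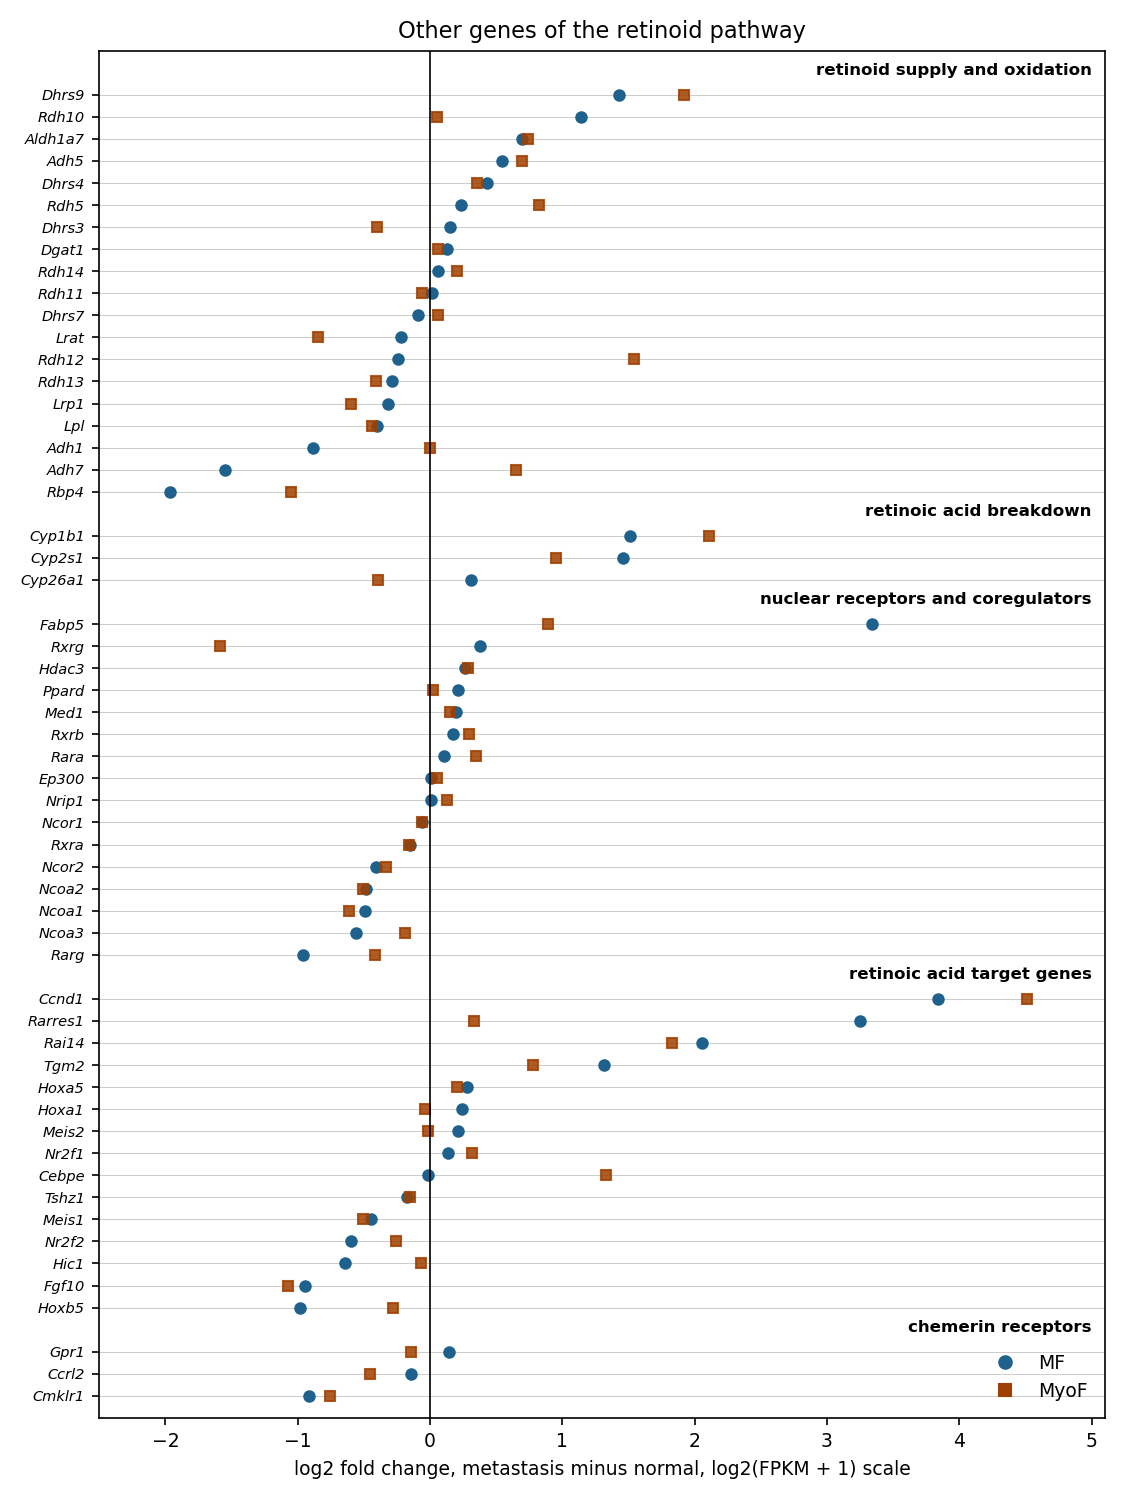
Log2 fold change (log2(FPKM + 1) scale) of metastatic against normal lung for the other tested retinoid genes, in MF (circles) and MyoF (squares), grouped by list; Dhrs3, which is in 2 lists, is drawn once, and 1 gene of the lists is not drawn. In the supply list the points lie on both sides of 0, from -1.96 for Rbp4 to 1.43 for Dhrs9 in MF.

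Of 5 other cytochrome genes that had been listed under retinoic acid breakdown, 3 were tested. Cyp26a1, the close relative of Cyp26b1 with the repeat shown above, was low in all groups, at 0.317 ± 0.107 FPKM in N-MF, 0.633 ± 0.142 in M-MF, 1.17 ± 0.106 in N-MyoF and 0.65 ± 0.0656 in M-MyoF. It passed the filter only through N-MyoF, where it was highest and so had to lie above M-MyoF, and its values are a description. It was higher in M-MF than in N-MF (0.31 ± 0.0766, limma adjusted p = 0.00248) and lower in M-MyoF than in N-MyoF (-0.40 ± 0.0766, adjusted p = 0.000374), but the difference in MF was not called after quantile normalization (0.07), and after median-ratio scaling it did not pass the filter. Cyp1b1 and Cyp2s1 encode cytochromes that act on many compounds, so their place in this list is uncertain, and their values are not read as breakdown. Both genes rose in both subgroups. Cyp1b1 rose by 1.51 ± 0.0291 in MF and 2.11 ± 0.0291 in MyoF, and Cyp2s1 by 1.46 ± 0.0652 and 0.95 ± 0.0652. The medians of the list were 1.46 and 0.95.

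All 16 nuclear receptors, their partners and coregulators were tested. In M-MF 7 rose and 6 fell (median 0.00), and in M-MyoF 6 rose and 7 fell (median -0.02); after the 3 scalings 1 to 3 rose and 8 to 10 fell in M-MF, and 2 to 4 rose and 8 to 10 fell in M-MyoF. Rarg, the receptor with the highest level per length of the 3 RAR genes in both MF groups, fell from 61.9 ± 1.15 to 31.4 ± 1.01 FPKM in MF (-0.96 ± 0.033) and from 37.1 ± 1.52 to 27.6 ± 0.582 in MyoF (-0.41 ± 0.033). Rara stood at 18.0 and 19.4 FPKM in N-MF and M-MF (0.10 ± 0.0233, a rise that became a fall of -0.08 after quantile normalization) and rose from 21.9 to 28.1 in MyoF (0.35 ± 0.0233). So the 3 RAR genes each had a pattern of their own, and Rarb remained the least abundant of them in every group. Rxrg, an RXR form of muscle and brain, fell in MyoF from 3.18 ± 0.196 to 0.393 ± 0.101 FPKM (-1.59 ± 0.0832). In MF it rose from 0.677 to 1.18 (0.38 ± 0.0832), except after quantile normalization, where that rise was not called (0.15). Without N-MyoF, where it was highest, Rxrg would not have passed the filter, so its fall in MyoF is a description. Fabp5, a fatty acid binding protein that can also carry retinoic acid, rose from 6.3 ± 0.311 to 73.1 ± 2.04 FPKM in MF (3.34 ± 0.0414) and from 19.7 ± 0.561 to 37.5 ± 1.86 in MyoF (0.89 ± 0.0414). Fabp5 is also made by epithelial cells and macrophages, and the part of other cells in it was not tested.

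Of 20 genes that retinoic acid is known to induce or regulate, 17 were tested. In M-MF 9 rose and 6 fell (median 0.15), and in M-MyoF 8 rose and 6 fell (median -0.01). The 8 include Cebpe, which passed the filter only through M-MyoF (1.59 FPKM), so its rise there was set by the filter. After the 3 scalings 6 to 8 rose and 6 to 7 fell in M-MF, and 5 to 6 rose and 8 to 9 fell in M-MyoF. Rarres1, named like Rarres2 as a retinoic acid receptor responder, rose from 1.96 ± 0.279 to 27.1 ± 2.43 FPKM in MF (3.25 ± 0.082). In MyoF it went from 3.71 ± 0.392 to 4.92 ± 0.299 (0.33 ± 0.082), a call that was lost after equal sums (0.18) and quantile normalization (0.16), and the effects differed by 2.92 ± 0.116 (limma adjusted p = 3.83e-10). Tgm2, the crosslinking enzyme tissue transglutaminase, rose in both (1.31 ± 0.0236 and 0.78 ± 0.0236). Ccnd1, a cyclin with many inducers, had the largest change of the list (3.84 ± 0.0285 and 4.51 ± 0.0285). The list does not give the direction in which retinoic acid moves each gene, so this rise is not read as induction by it. Hoxb5, a homeobox gene of lung mesenchyme, fell in both (-0.98 ± 0.0547 and -0.28 ± 0.0547), and so did Fgf10, a growth factor for airway buds (-0.94 ± 0.0452 and -1.07 ± 0.0452). The list therefore held members at both ends, and its medians of 0.15 and -0.01 stood beside 0.08 and 0.11 for all genes.

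Of 4 listed symbols for the receptors of chemerin, the product of Rarres2, 3 were matched and tested; Cmklr2 is another name for Gpr1. Cmklr1, its main signalling receptor, fell from 79.2 ± 1.76 to 41.6 ± 1.64 FPKM in MF (-0.91 ± 0.0363) and from 10.9 ± 0.494 to 6.04 ± 0.0945 in MyoF (-0.75 ± 0.0363). Ccrl2, which holds chemerin at the cell surface, was higher in the MyoF groups (287 ± 9.01 FPKM in N-MyoF and 209 ± 5.07 in M-MyoF) than in N-MF (63.2 ± 1.43) and M-MF (57 ± 1.94), and fell in both subgroups (-0.15 ± 0.0308 and -0.45 ± 0.0308). Gpr1 was not called in either (0.14 ± 0.0642 and -0.14 ± 0.0642; limma adjusted p = 0.06 and 0.0576), and was called lower in MyoF under the 3 scalings (-0.31 to -0.16). In MF, Rarres2 and Cmklr1 thus moved in opposite directions.

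For each gene, the 3 others whose log2 values were most alike over the 12 libraries were listed by Pearson's r, among 9739 genes with a mean of at least 5 FPKM in their highest group. These r describe points that fall into 4 groups and share libraries, and no test was made. Aldh1a2 was most like Pgm3 (r = 0.999), P4hb (0.997) and Tmed9 (0.997); P4hb encodes protein disulfide isomerase, a subunit of collagen prolyl hydroxylase. Aldh1a3 was most like Lbp (0.999), Serpinh1 (0.999), the collagen chaperone, and B4galt1 (0.998). Aldh1a1 was most like Gas7 (0.998), Srpx (0.998) and Epyc (0.997), all higher in MF. Stra6 was most like Commd10 (0.995), Tapbp (0.995), which helps load MHC class I, and G6pdx (0.994). The likeness was lower for the genes that rose in MF and fell in MyoF: Rarres2 was most like Csnk1d (0.982), Ldhb (0.982) and Frmd4b (0.980), Rarb like Mitf (0.962), Maged2 (0.958) and Fech (0.948), and Cyp26b1, for which 2 are given, like Tmem255a (0.930) and Errfi1 (0.924). Crabp2 was most like Ephx2 (0.966), Jcad (0.949) and Krt23 (0.944).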

How the data were processed

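RNA was extracted with Trizol, and cDNA was amplified by SMART-SeqII and made into transposon-based libraries, per the labels' protocols. The authors deposited FPKM values, per the file headers, with 2 decimals. The build was GRCm38, per the submitters' processing notes; the aligner, counter and annotation: not given in the sources used here. Library sums ran from 528176 to 618478 FPKM, and the read depth is unknown, so no counting error is given.

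Groups came from sample titles. Log2(FPKM + 1) was fitted in R 4.3.3 with limma 3.58.1 as 4 group means over all 12 libraries, with a mean-variance trend, for the 13300 genes that reached 1 FPKM in 3 or more libraries. A gene was called at a Benjamini-Hochberg adjusted p under 0.05 over all genes, and "higher", "lower", "rose" and "fell" refer to that. The code was tested on simulated data. Same-numbered libraries of different groups deviated together over 1830 genes (r of 0.482 to 0.796 in 18 pairs, against -0.683 to 0.38 in 36 others), so the number was used as a block in an alternative fit. Python 3.11.15, pandas 2.3.3 and matplotlib 3.10.9 prepared tables and figures. Other alternatives were pseudocounts, filters, scalings, the compared groups alone, no trend and each library left out; a fit without the 4 libraries numbered 3 was chosen after the data had been seen. The genes and all lists were chosen with earlier results of these data known. All 9 genes are named whatever their values, list genes as examples, and the 3 most alike genes by correlation. Individual values of some listed genes are not reported here, though counts and medians of their lists include them. A planned comparison of protein sequences was not made here.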

Additional observations from a re-analysis of the deposited data

Results flagged for a closer look

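The effect of metastasis differed between MF and MyoF, by a test of the difference itself (limma, adjusted over all 13300 genes), for 6 of the 8 tested genes, where 64.4% of all genes were called. Given as the log2 effect in MF minus that in MyoF, the difference was 1.10 ± 0.081 (SE) for Aldh1a2, which rose in both. It was 1.23 ± 0.071 for Rarb, 0.65 ± 0.0475 for Rarres2 and 0.69 ± 0.0922 for Cyp26b1, which rose in MF and fell in MyoF. It was 0.90 ± 0.141 for Crabp2, which rose in MF and was not called in MyoF. It was -0.87 ± 0.083 for Stra6, which rose in both but met the filter only through metastatic lung, so its value is a description. Aldh1a1 (0.05 ± 0.0291, adjusted p = 0.163) and Aldh1a3 (-0.02 ± 0.0526, adjusted p = 0.728) did not pass as deposited. In the same libraries the neutrophil markers rose far more in MyoF and the mesothelial markers more in MF; their part in these differences was not tested.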

How the results depend on the processing

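Of 896 values of single genes under the alternatives, 874 kept their side of the threshold, 9 newly passed it and 11 no longer did. The remaining 2 changed sign and were called before or after the change. A change of sign in a value called in neither fit was not counted and lies within the 874. The 2 that changed sign were the difference of the 2 metastasis effects for Aldh1a3 with a pseudocount of 5 (0.83) and Stra6 in M-MF against M-MyoF after quantile normalization (0.082). With a filter of 5 FPKM fewer genes were tested, and 4 of the retinoid genes were called for M-MF against N-MF (7 as reported), 3 for the difference (6), 5 for N-MF against N-MyoF (8) and 5 for M-MF against M-MyoF (8). Quantile normalization left 5 in N-MF against N-MyoF; the cause was not tested. The fall of Aldh1a1 in MyoF was lost with only the compared groups fitted (adjusted p = 0.0679) and with no trend (0.098), and Crabp2 was called lower there after quantile normalization (-0.22, adjusted p = 0.0499). Aldh1a1 was called for the difference after the 3 scalings (0.07 to 0.13). At least 2-fold on the log2 scale, the difference held 5 genes with a pseudocount of 0.1, 1 with 5 and 1 after quantile normalization (2 as reported).

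Leaving out each library in turn gave 7 to 7 called retinoid genes for M-MF against N-MF, 6 to 7 for M-MyoF against N-MyoF, 6 to 6 for the difference, 8 to 8 for N-MF against N-MyoF and 8 to 8 for M-MF against M-MyoF. Over all genes the same ranges were 9999 to 10316, 10267 to 10698, 8111 to 8243, 10465 to 10866 and 10866 to 11284. The replicate block changed no call of the 8 genes (7, 7, 6, 8 and 8 called), nor did leaving out the 4 libraries numbered 3, an alternative chosen after seeing the data. The difference could not be fitted with only 2 groups.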
